A study of Sus scrofa with 6 samples.

Results

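Gene expression in the ovary and in uterine tissue of the non-pregnant pig was compared between 2 of the 6 arrays of a pregnancy series. These 2 arrays are titled ovary and myometrium of the non-pregnant (NP) group. The pair was chosen by these titles and by no measured value, and it is the organ pair of the series that holds no pregnancy stage. The other 4 arrays carry ovary and tissue labelled myometrium from early pregnant (EP) and late pregnant (LP) pigs. The values of these arrays stand beside the NP values below. Per the labels, freshly rinsed tissue was frozen, total RNA was extracted, and biotin-labelled cRNA was hybridised to single-channel Affymetrix arrays. The series design counts 9 pigs, 3 per stage. The sources used here do not give whether an array carries RNA of a single pig or of a pool. Nor do they give the breed, the age or the phase of the oestrous cycle of the non-pregnant pigs. Each organ is thus represented by 1 array with no replicate, so the organ ratios have no error and no test and describe these arrays.

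The ovary holds follicles, in which granulosa cells surround the oocyte, and corpora lutea, the glands that form from ovulated follicles and secrete progesterone. Progesterone synthesis starts when STAR carries cholesterol into the mitochondrion, where CYP11A1 cleaves its side chain; HSD3B1 then converts pregnenolone to progesterone. The uterus consists of an inner mucosa, the endometrium, with a surface epithelium, glands and stroma, and an outer muscular wall, the myometrium. Oestrogen and progesterone act on the uterus through the receptors ESR1 and PGR, and the cyclic endometrium is known for glandular secretion, ion transport and resident lymphocytes.

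The values are MAS5 signals, a linear intensity for each probe set. Before taking log2, any signal under 81.7 was set to that value, the 40th percentile over all arrays, called the floor here. A log2 ratio is ovary over uterine tissue, so positive values are higher in ovary. Where a single NP array lay at the floor, the ratio is a bound, written as "at least" or "or more". A gene counts as measured if either NP array exceeded the floor, and the brightest probe set stands for a gene with several. Above the floor lay 60.6% of the 23999 probe sets on the NP ovary array and 61.6% on the NP uterine array, within the range of 57.4% to 61.6% over all arrays. The signals of the NP arrays correlated at Pearson's r = 0.874 on the log2 scale over the 11733 probe sets above the floor everywhere; this is across probe sets of a pair of arrays, which are not independent. Spiked hybridisation controls read 0.59 higher (log2) on the NP ovary array than on the NP uterine array. GAPDH probe sets at the 3' end read 2.33 times those at the 5' end on the NP ovary array and 1.52 times on the NP uterine array. For actin the same ratio was 3.38 on the NP ovary array and 3.49 on the NP uterine array, so the GAPDH difference was not shared.

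The markers fixed for the organs were split cleanly between the arrays. STAR had a signal of 28846 on the NP ovary array and 13.2, under the floor, on the NP uterine array, a difference of at least 353-fold. CYP11A1 read 10664 and 22.1, at least 131-fold higher in ovary. EPCAM, which joins epithelial cells to each other, read 191 in ovary and 10256 in uterine tissue, a log2 ratio of -5.74. CCL28, a chemokine of mucosal epithelia, read 16 in ovary and 5059.9 in uterine tissue, at least 61.9-fold higher there. The ovary label thus carries steroid cell genes. The myometrium label is not borne out in the same way, because epithelial genes were bright on that array and smooth muscle genes were no brighter than in ovary: ACTA2, smooth muscle actin, read 23509 in ovary and 7613 in uterine tissue. MYH11 was not among the named probe sets. The array labelled myometrium is therefore called uterine tissue here. In whole tissue, fewer cells of a type and less RNA per cell cannot be told apart, and this holds for every organ ratio below.

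Of 15992 probe sets measured, 1397 (8.74%) were 2-fold or more higher in ovary and 1387 (8.67%) were 2-fold or more higher in uterine tissue. Among 5642 measured genes, 5123 lay above the floor on both NP arrays. Of the measured genes 514 (9.11%) were 2-fold or more higher in ovary and 472 (8.37%) in uterine tissue, and these shares are the background for the list counts below. At 4-fold or more the counts were 164 genes (2.91%) and 170 genes (3.01%), and 405 (2.53%) and 423 (2.65%) probe sets. The median log2 ratio over genes was -0.03. The even split depends on the scaling: with the arrays set equal on the hybridisation controls, 635 probe sets were 2-fold or more higher in ovary against 3845 in uterine tissue, so that 14.2% in place of 50.2% of the 2-fold probe sets were higher in ovary and the median gene ratio was -0.60. Under this control scaling 4.40% of genes were 2-fold or more higher in ovary and 24.0% in uterine tissue. These shares are the background for list counts under the control scaling. Ratios are reported under the authors' scaling. The medians of the lists described below that turn sign under the control scaling are named as such. Of 310 genes taken from the lists and rankings below with a ratio other than 0, 213 were 2-fold or more apart. The control scaling moves a ratio by about 0.59 (log2) or less, which cannot turn the sign of a 2-fold ratio. That these 213 kept their sign was thus fixed in advance, and 178 of them stayed 2-fold or more apart the same way. Of the others 31 turned sign.

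A further probe set of the same gene gives a technical check on the same arrays. Of the 514 genes higher in ovary, 159 had a next probe set that was measured; it went the same way for 153 of them, at 2-fold or more for 100, and the opposite way at 2-fold for 0. For the 472 genes higher in uterine tissue, 105 had such a probe set, 101 went the same way, 65 at 2-fold or more, and 0 opposed at 2-fold. For some genes the probe sets differed widely in size. For CAPNS1, the calpain small subunit, the brightest probe set read 23500.3 in ovary and 75.0 in uterine tissue, at least 288-fold apart, whereas its other probe set had a log2 ratio of 0.22. The organ difference of CAPNS1 is thus not settled by these arrays.

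**Figure D1:**
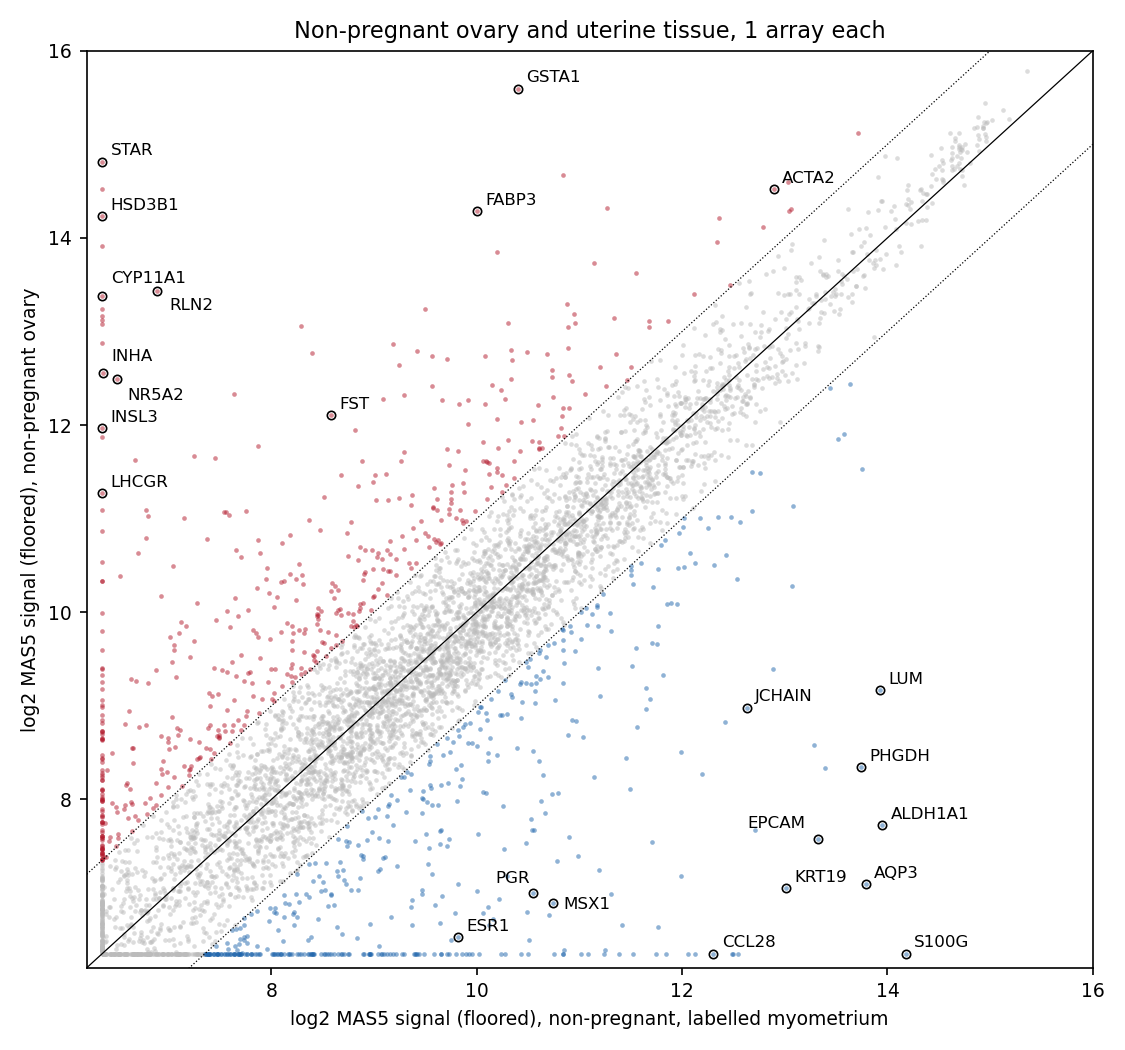
Each point is 1 of the genes measured in the non-pregnant pair, with the log2 signal on the array labelled myometrium on the horizontal axis and on the ovary array on the vertical axis, both floored at a signal of 81.7. Red and blue points are 2-fold or more apart (dotted lines); STAR, HSD3B1 and CYP11A1 lie on the floor of the uterine axis, and S100G and CCL28 on the floor of the ovary axis.

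Most genes of progesterone synthesis were higher in ovary. Of 20 members on the array, 2 were under the floor on both arrays; of the 18 measured, 14 were 2-fold or more higher in ovary, 1 was 2-fold or more higher in uterine tissue, and the median log2 ratio was 2.37. Bounds make up 7 of these ratios. A member measured through 1 array alone had to differ in that direction, so this count and those of the other lists are descriptions. HSD3B1 read 19261 in ovary and 64.1 in uterine tissue, at least 236-fold higher in ovary, and its probe set can cross-hybridise with related copies. FDXR and FDX1, which pass electrons to CYP11A1, had log2 ratios of 3.51 (2153 against 189) and 1.85 (18995 against 5268). SCARB1, the receptor that takes up cholesterol from high-density lipoprotein, read 7072 and 684, a log2 ratio of 3.37. These are enzymes and carriers that act in sequence, and all were higher on the ovary array.

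The accessory factors of the same list were mixed in size. MRAP, an accessory protein of melanocortin receptors, read 1875 in ovary and 5.2 in uterine tissue, at least 23.0-fold higher. NPC1, which moves cholesterol out of lysosomes, had a log2 ratio of 2.62, HSD17B7 of 2.40 and CYB5A, cytochrome b5, of 1.24. NPC2, the partner of NPC1 in the lysosome, and POR, which passes electrons to microsomal cytochromes P450, had ratios of 1.61 and 1.46. TSPO, a cholesterol-binding protein of the outer mitochondrial membrane, was 2-fold or more the other way, with 925 in ovary and 3470.4 in uterine tissue (log2 ratio -1.91). The oestrogen and androgen enzymes had 6 measured members of 10 on the array, of which 3 were 2-fold or more higher in ovary and 0 in uterine tissue. CYP19A3, a porcine aromatase gene, read 8691 against 39.2, at least 106-fold higher in ovary. Its further probe sets ranged from -0.67 to 5.01 or more. The aromatase copies are too alike for these probe sets to be told apart with certainty. HSD17B1, which reduces oestrone to oestradiol, was at least 91.9-fold higher in ovary (7505 against 66.1). CYP17A1, the enzyme of androgen synthesis, was dim, at 179 in ovary and 6.4 in uterine tissue.

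Luteal hormones and receptors were split between a few very large ratios and members that hardly differed. Of 9 measured members, 4 were 2-fold or more higher in ovary and 1 in uterine tissue, with a median of 0.85. RLN2, which encodes relaxin, read 11029 in ovary and 118 in uterine tissue, the largest ratio among genes above the floor on both arrays (log2 6.54). INSL3, an insulin-like peptide hormone, read 3994 and 26.4, at least 48.9-fold higher in ovary. LHCGR, the receptor for luteinising hormone, read 2479.9 and 11.2, at least 30.4-fold higher. PTGFR, the receptor through which prostaglandin F acts on the corpus luteum, had a log2 ratio of 4.38 (6982 against 336). OXT, which encodes oxytocin, was the exception, under the floor in ovary (16.2) and at 495 in uterine tissue, at least 6.06-fold higher there. PCSK1, a prohormone convertase, was under the floor on both NP arrays. VEGFA had a log2 ratio of 0.52, which turned to -0.07 under the control scaling.

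Granulosa and follicle genes were mostly on the ovary side. Of 16 measured members of 22 on the array, 12 were 2-fold or more higher in ovary and 0 in uterine tissue, and the median was 1.90. INHA, the alpha subunit of inhibin, read 6006 in ovary and 82.1, just above the floor, in uterine tissue (log2 6.19). FST, follistatin, which binds activin, read 4400.3 and 382 (log2 3.52). SERPINE2, a protease inhibitor secreted by granulosa cells, read 8919 and 76.4, at least 109-fold higher in ovary. DAPL1 had a log2 ratio of 4.42, and BMPR1B, a receptor for bone morphogenetic proteins, of 1.21. The dimmer members FSHR, AMH and AMHR2 lay between 226 and 337 in ovary and under the floor in uterine tissue. INHBA, the inhibin beta A subunit, went the other way within 2-fold (253 against 442, log2 -0.81).

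Of 6 measured oocyte genes, 3 were 2-fold or more higher in ovary and 0 in uterine tissue. ZP3 and ZP4, proteins of the zona pellucida around the oocyte, read 295 and 346 in ovary and lay under the floor in uterine tissue, at least 3.61-fold and at least 4.24-fold higher in ovary. H1FOO, the oocyte linker histone, was at least 3.36-fold higher. GDF9, an oocyte growth factor, read 272 against 145, within 2-fold, and BMP15 and DDX4 were under the floor on both arrays. KIT, a receptor of oocytes that other cells carry as well, was the brightest member, at 1194 and 810.2, within 2-fold (log2 0.56). The zona and histone signals in ovary were within a few-fold of the floor, as were those of FSHR, AMH and AMHR2.

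Transcription factors of the gonad were higher in ovary in 6 of 7 measured cases at 2-fold or more, with a median of 2.35. NR5A2, an orphan nuclear receptor that regulates steroid enzymes, read 5741 in ovary and 90.5 in uterine tissue (log2 5.99). By its further measured probe sets NR5A2 had bounds that ran from 1.07 or more to 5.24 or more. Its relative NR5A1 read 415 and 53.3, at least 5.08-fold higher in ovary. GATA6 was at least 15.8-fold and GATA4 at least 6.52-fold higher in ovary. A further GATA4 probe set, just above the floor in ovary (87.2), gave a log2 ratio of 0.09 or more. TCF21 and CITED2 had log2 ratios of 2.21 and 1.90. WT1, a factor of the gonadal ridge and the mesothelium, was the member without a difference, at 189.6 and 192.

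In the fatty acid list 10 of 24 measured members were 2-fold or more higher in ovary and 1 in uterine tissue (median 0.91); under the control scaling 7 and 3 were. FABP3, a cytosolic fatty acid carrier, read 19934 in ovary and 1028 in uterine tissue (log2 4.28). LRP8, a lipoprotein receptor, had a log2 ratio of 4.69 (5140.0 against 199), and ANGPTL4, an inhibitor of lipoprotein lipase, of 3.40. PPARG, a nuclear receptor for fatty acids, was at least 12.4-fold higher in ovary (1016 against 53.8). The acyl-CoA synthetases divided: ACSL4 and ACSL6 were higher in ovary (log2 2.35, and 3.05 or more), whereas ACSL3 was higher in uterine tissue (583 against 3208, log2 -2.46).

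Cholesterol synthesis followed less strongly, with 6 of 14 measured members 2-fold or more higher in ovary, 0 in uterine tissue and a median of 0.66 that was 0.07 under the control scaling. TM7SF2, a sterol reductase, had the largest ratio of the list (1582 against 104, log2 3.93). SCAP, which escorts the sterol-regulated transcription factors, and HMGCS1, an early enzyme of the pathway, had log2 ratios of 2.19 and 2.07; CYP51, a sterol demethylase, had 1.12. Among 26 measured glutathione and detoxification genes, 9 were 2-fold or more higher in ovary and 2 in uterine tissue. The control scaling gave 7 and 5, against 4.40% and 24.0% of all genes. GSTA1, a glutathione transferase of a family of close copies, read 49476 in ovary and 1351 in uterine tissue (log2 5.19). GPX3, a secreted glutathione peroxidase, was at least 119-fold higher in ovary (9682 against 36.6). SELENBP1 and GGT1, which cleaves extracellular glutathione, had log2 ratios of 4.77 and 4.22. GCLC and GCLM, the subunits of the enzyme that starts glutathione synthesis, had ratios of 1.88 and 1.57, and NQO1, a quinone reductase, of 1.68. GSTM3 was higher in uterine tissue (log2 -1.86), as was the metallothionein MT1A (-1.10).

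Prostaglandin genes had 6 measured members, of which 4 were 2-fold or more higher in ovary and 0 in uterine tissue. PTGES, the inducible prostaglandin E synthase, read 4985 and 545 (log2 3.19), and TBXAS1, thromboxane synthase, was at least 5.63-fold higher in ovary. AKR1CL1, an aldo-keto reductase, read 15383 and 27.7, at least 188-fold. Its further, dimmer probe sets gave log2 ratios of 0.99 or more and 1.34 or more. Genes from no steroid list also ranked high. ADAMDEC1, a secreted metalloprotease, read 9201 in ovary and 1.5 in uterine tissue, at least 113-fold higher. STC1, stanniocalcin, read 2183 and 109.5 (log2 4.32). AREG, an epidermal growth factor receptor ligand of the ovulating follicle, was at least 46.0-fold higher (3762 against 33.6). PLBD1 had a log2 ratio of 4.96, with further probe sets from -0.57 to 4.49 or more.

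Epithelial genes had the lowest median of the lists described. Of 13 measured adhesion and keratin genes of 14 on the array, 11 were 2-fold or more higher in uterine tissue, all of these at 4-fold or more, 1 was 2-fold or more higher in ovary, and the median was -4.70. The keratins KRT18 and KRT19 read 5960.1 and 8236 in uterine tissue; KRT18 was under the floor in ovary (10.5, at least 73.0-fold lower), and KRT19 read 132 there (log2 -5.96). CDH1, E-cadherin, read 204 in ovary and 6715 in uterine tissue (log2 -5.04), and DSP, desmoplakin of the desmosome, 84.0 and 2441 (log2 -4.86). OCLN, occludin of the tight junction, read 152 and 2334 (log2 -3.94), and KRT8 383 and 9978 (log2 -4.70). The claudins CLDN7 and CLDN4 were at least 32.7-fold and at least 16.9-fold higher in uterine tissue, and CLDN10 had a log2 ratio of -4.32. CLDN11, a claudin of other barriers, was higher in ovary (5531 against 1134, log2 2.29), and JUP, plakoglobin, was within 2-fold (-0.74).

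Regulators of epithelium were higher in uterine tissue as well. All 10 measured members of the list of epithelial transcription factors and proteases were 2-fold or more higher in uterine tissue, with a median of -2.74; 1 member was under the floor on both arrays and 5 ratios are bounds. SPINT2, an inhibitor of membrane proteases, read 187 in ovary and 3338 in uterine tissue (log2 -4.15). ST14, the protease matriptase, and ESRP1, an epithelial splicing regulator, had log2 ratios of -2.97 and -2.94. ELF3 and EHF, epithelial factors of the ETS family, were at least 5.82-fold and at least 5.12-fold higher in uterine tissue. SMIM22 gave the largest bound of the list (-4.74 or lower), but its further probe set had a log2 ratio of -0.03.

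Transport and secretion genes of the endometrium included several of the largest ratios. Of 15 measured channels and transporters, 7 were 2-fold or more higher in uterine tissue and 0 in ovary. AQP3, a channel for water and glycerol, read 137 in ovary and 14148 in uterine tissue (log2 -6.69), the most negative ratio among genes above the floor on both arrays. S100G, an intracellular calcium carrier, read 9.3 and 18568, at least 227-fold higher in uterine tissue, and a further, dimmer probe set gave -1.32 or lower. SLC34A2, a phosphate transporter, was at least 54.8-fold higher in uterine tissue (7.4 against 4479). SLC28A3, a nucleoside transporter, was at least 70.5-fold higher, and SLC5A1, the sodium and glucose cotransporter, at least 12.7-fold. ATP1B1, a subunit of the sodium pump, had a log2 ratio of -1.95, and SLC7A1, a cationic amino acid carrier, of -2.08. AQP1, a water channel of vessels, was within 2-fold (-0.61). TRPV6, a calcium channel, was dim on both arrays (57.1 and 167).

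Among 17 measured gland secretion genes, 8 were 2-fold or more higher in uterine tissue and 6 in ovary, against 10 and 2 under the control scaling. SLPI, a secreted protease inhibitor, read 324 in ovary and 10750.3 in uterine tissue (log2 -5.05). WFDC2, a related secreted protein, was at least 45.0-fold higher in uterine tissue (72.9 against 3678), and the membrane mucin MUC4 at least 6.08-fold. SPP1, osteopontin, went the other way (6637 against 1297, log2 2.36), as did ACP5, the phosphatase uteroferrin (1164 against 559, log2 1.06), CTSB, cathepsin B (log2 1.56), and CLU, clusterin (1.29). UABP-2, which encodes a uteroferrin-associated protein, was under the floor on both NP arrays (9.1 and 63.8).

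ALDH1A1, which oxidises retinal to retinoic acid, read 211 in ovary and 15835 in uterine tissue (log2 -6.23), and its further probe set gave -6.23. In the retinoid list as a whole 3 of 9 measured members were 2-fold or more higher in uterine tissue and 2 in ovary; the median of 0.03 turned to -0.61 under the control scaling. RARRES1 and RDH11 were higher in ovary (log2 2.48 and 2.14). RBP4, the plasma retinol carrier, was at least 4.55-fold higher in uterine tissue by its brightest probe set. Its further probe set went the other way (0.69 or more). Genes of other functions were among the lowest ratios too. PHGDH, the entry enzyme of serine synthesis, read 325 and 13680.1 (log2 -5.39). VNN2, a pantetheinase, was at least 70.1-fold higher in uterine tissue. F2RL2, a thrombin receptor, and SDCBP2, a syntenin, had log2 ratios of -5.13 and -4.76, and FAM84A was at least 52.3-fold higher in uterine tissue.

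Factors that pattern the reproductive tract were divided. Of 11 measured members, 5 were 2-fold or more higher in uterine tissue and 2 in ovary; the median of 0.09 turned to -0.50 under the control scaling. MSX1, a homeobox factor of the uterine epithelium, read 119 in ovary and 1708 in uterine tissue (log2 -3.85). HOXB7 read 111 and 1071 (log2 -3.27), and HOXA9 was at least 4.01-fold higher in uterine tissue. FOXA2, a factor of uterine glands, was under the floor in ovary (1.1) and read 694 in uterine tissue, at least 8.49-fold higher. MEIS1 had a log2 ratio of -1.93, while its relative MEIS2 was higher in ovary (1.25), as was HOXD8 (1.53).

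Receptors for the ovarian steroids were on the uterine side. PGR, the progesterone receptor, read 128 in ovary and 1498 in uterine tissue (log2 -3.55). ESR1, the oestrogen receptor alpha, read 92.4 and 902 (log2 -3.29), and ESR2 was under the floor on both arrays. FKBP4, a cochaperone of these receptors, was just past 2-fold in the same direction (-1.01). The glucocorticoid receptor NR3C1 and its cochaperone FKBP5 were higher in ovary (log2 1.38 and 1.76). In all 3 of 11 measured members of this list were 2-fold or more higher in uterine tissue and 2 in ovary.

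Lymphocyte genes were higher in uterine tissue. Of 11 measured genes of T and natural killer cells, of 14 on the array, 8 were 2-fold or more higher in uterine tissue, 0 were in ovary, and the median was -1.53; the summed signal of the list was 1573 in ovary and 4945 in uterine tissue. CD3D, CD3E and CD3G, chains of the T cell receptor complex, read 101, 212 and 139 in ovary and 498, 581 and 363 in uterine tissue. CD8A, a coreceptor of cytotoxic T cells, had a log2 ratio of -1.72, and KLRK1, an activating receptor of natural killer cells, of -2.22. CCL5, a chemokine of these cells, was at least 9.87-fold higher in uterine tissue (76.1 against 806). GNLY, a cytotoxic granule protein, was at least 2.89-fold higher in uterine tissue, and CD2 was within 2-fold (-0.42). JCHAIN, which joins the subunits of secreted immunoglobulin, read 505 in ovary and 6347 in uterine tissue (log2 -3.65), and PIGR, which carries such immunoglobulin across epithelium, was at least 3.56-fold higher there. IL15, a cytokine that maintains natural killer cells, had a log2 ratio of -2.31. Epithelial genes moved with these genes on the same array, and their part in the lymphocyte ratios was not tested.

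Myeloid and class II genes did not share that direction. Of 12 measured macrophage genes 2 were 2-fold or more higher in ovary and 0 in uterine tissue (median 0.49, and -0.10 under the control scaling). CD163, a scavenger receptor of macrophages, read 2938 and 943 (log2 1.64), and C1QC, a chain of complement C1q made by macrophages, was within 2-fold (0.41). Of 10 measured class II genes 1 was 2-fold or more higher in ovary and 0 in uterine tissue. That member, SLA-DMA, had a log2 ratio of 2.16, but its further probe set gave -0.44, and SLA-DRA read 4871 and 4933. Interferon-response genes were higher in ovary at 2-fold or more in 9 of 20 measured cases and in uterine tissue in 1, with a median of 0.79 (0.20 under the control scaling). ISG15, a ubiquitin-like modifier, read 6401 in ovary and 604 in uterine tissue (log2 3.41), and the antiviral genes RSAD2, MX1, IFIT1 and IFIT3 had log2 ratios of 2.72, 2.24, 2.09 and 2.01. IRF7 and DDX58, a regulator and a sensor of this response, had ratios of 1.12 and 1.33. OAS1, an antiviral synthetase, went the other way (-1.17).

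Chemokines and cytokines had no common direction. Of 24 measured members 6 were 2-fold or more higher in uterine tissue and 3 in ovary, with a median of -0.04. CCL21, which draws lymphocytes and dendritic cells into lymph vessels, read 2099 in ovary and 192 in uterine tissue (log2 3.45). CCL2, a monocyte attractant, and CXCR4, the receptor of CXCL12, were higher in ovary as well (log2 2.90 and 1.52), while CXCL12 itself was within 2-fold (0.45). On the uterine side CXCL16, CCL4 and CXCL2 joined CCL28, CCL5 and IL15, with log2 ratios of -1.24, -1.42 and -1.55.

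Growth factors and their antagonists were divided too, 7 of 18 measured members being 2-fold or more higher in ovary and 2 in uterine tissue, and 5 and 5 under the control scaling. DKK3, a secreted protein of the Dickkopf family, read 6819.7 in ovary and 758 in uterine tissue (log2 3.17). SFRP1, which binds Wnt ligands, read 1583 and 238 (log2 2.74), and its further probe set gave 4.16. IGFBP2, a carrier of insulin-like growth factors, was higher in ovary (1.97), and IGFBP6, another carrier, in uterine tissue (-1.60). FGFR2, a receptor for fibroblast growth factors, read 106 and 352 (log2 -1.73). The growth factors IGF1 and IGF2 themselves were within 2-fold (-0.52 and 0.06). UCHL1, a ubiquitin hydrolase of neurons and germ cells, was higher in ovary (3940.4 against 449, log2 3.13), whereas most other nerve genes were under the floor on both arrays.

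Smooth muscle genes were not higher in the tissue labelled myometrium. Of 23 measured members of 24 on the array, 7 were 2-fold or more higher in ovary, 0 in uterine tissue and 16 were within 2-fold; the median of 0.61 was 0.02 under the control scaling, under which 5 members were 2-fold higher in ovary and 1 in uterine tissue, against 4.40% and 24.0% of all genes. TAGLN, transgelin, read 5947 in ovary and 1912 in uterine tissue (log2 1.64). ACTG2, the actin of visceral muscle, read 1994 and 437 (log2 2.19). TPM2, a tropomyosin, had 1.54, and CALD1, caldesmon, and SMTN, smoothelin, were within 2-fold (0.89 and 0.53). PLN, phospholamban, and MYL9, a myosin light chain, had log2 ratios of 2.63 and 1.85. DES, desmin, read 193 and 90.6, the latter just above the floor, and CNN1, calponin, read 546 and 372 (0.55, within 2-fold). Contraction signalling, a list that holds PTGFR, was mixed: 3 of 11 measured members were 2-fold or more higher in ovary and 1 in uterine tissue, and the latter, AGTR1, an angiotensin receptor, had a log2 ratio of -1.34. The median of that list, 0.23, turned to -0.27 under the control scaling. OXTR, the oxytocin receptor, was under the floor on both arrays. The shares of muscle, mucosa and ovarian stroma in the samples are not known, and their part in these ratios was not tested.

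Of 18 measured fibrillar matrix genes 5 were 2-fold or more higher in ovary and 3 in uterine tissue, with a median of -0.02; the control scaling gave 4 and 7. ASPN and LUM, small proteoglycans that bind collagen, were far higher in uterine tissue, at 4064 and 15608 against 145 and 575 in ovary (log2 -4.81 and -4.76). MGP, an inhibitor of calcification, POSTN, periostin, and BGN, biglycan, were higher in ovary (log2 3.05, 2.89 and 2.46). DCN, decorin, and COL1A2, a chain of collagen I, were within 2-fold (0.18 and -0.09), as was SPARC (0.22). FN1, fibronectin, was higher in uterine tissue (2080.4 against 5707, log2 -1.46), and LOXL1 and LOX, which cross-link elastin and collagen, in ovary (2.32 and 1.10). Of 25 measured complement and coagulation genes 10 were 2-fold or more higher in ovary and 0 in uterine tissue. Under the control scaling 7 and 4 were, against 4.40% and 24.0% of all genes. C7, a terminal complement component, had a log2 ratio of 3.25, and F3, tissue factor, of 2.73. C3, the central complement component, PROS1, the anticoagulant protein S, and PLAT, tissue plasminogen activator, had ratios of 1.22, 1.78 and 1.26. Endothelial genes were 2-fold or more higher in ovary in 5 of 14 measured cases, but the median of 0.57 turned to -0.02 under the control scaling, and PECAM1, CDH5 and VWF were within 2-fold.

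**Figure D2:**
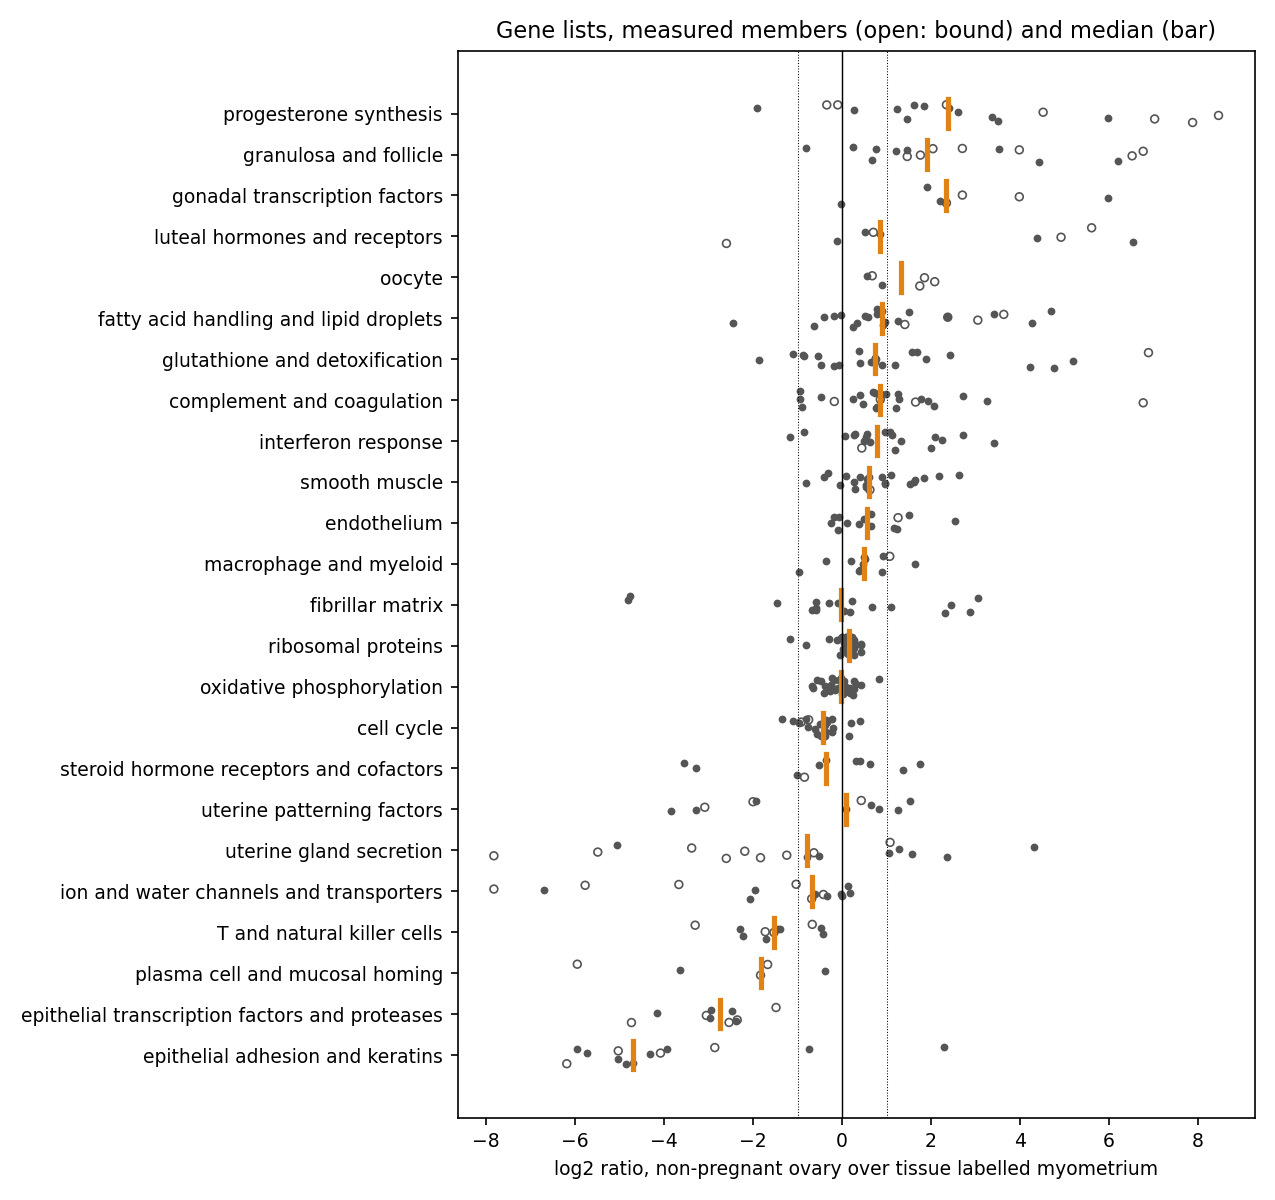
Log2 ratios of ovary over tissue labelled myometrium in the non-pregnant pair, 1 point per measured gene and 1 line per gene list, with open points for bounds and an orange bar at the list median. Dotted lines mark 2-fold; the medians of the lists drawn run from 2.37 for progesterone synthesis to -4.70 for epithelial adhesion and keratins, and the ribosomal and oxidative phosphorylation genes cluster near 0.

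Genes of general cell functions were mostly within 2-fold under the authors' scaling. Of 34 measured genes of oxidative phosphorylation 0 were 2-fold or more higher in either organ, with ratios from -0.68 to 0.83. The brightest probe set of NDUFA1 gave -0.25, but a further one read 391 in ovary and 18937 in uterine tissue (log2 -5.60). Among 50 measured ribosomal protein genes 1 was 2-fold higher in uterine tissue and 0 in ovary, and the median was 0.16 (-0.43 under the control scaling). That exception, RPL26, was dim (91.0 and 206). Of 22 measured cell cycle genes 2, CCNB1 and TOP2A, were 2-fold or more higher in uterine tissue and 0 in ovary (log2 -1.35 and -1.10), while 19 of the 22 had a ratio below 0; under the control scaling 10 were 2-fold or more higher in uterine tissue, against 24.0% of all genes. Of 12 measured immediate early genes, which respond to handling as well as to hormones, 4 were 2-fold or more higher in ovary and 0 in uterine tissue, which became 1 and 3 under the control scaling. EGR1 read 1064 and 260.4 (log2 2.03), and FOS and JUN were within 2-fold (0.41 and 0.68). Of 19 measured stress and unfolded protein genes 1, SDF2L1, was 2-fold or more higher in uterine tissue (log2 -1.44) and 0 in ovary. For HSPA8 the brightest probe set gave -0.28, but further ones gave -1.86 to -2.25. GAPDH and ACTB had log2 ratios of 0.30 and 0.47, which turned to -0.29 and -0.12 under the control scaling. In the housekeeping list, whose median of 0.27 turned to -0.32 under that scaling, ENO1, a glycolytic enzyme, was 2-fold or more higher in ovary (1.33). EEF1A1, an elongation factor, had -1.08, and TFRC, the transferrin receptor, was at least 2.74-fold higher in uterine tissue.

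Trophoblast genes were mostly under the floor on the NP arrays. PAG6, a pregnancy-associated glycoprotein of the placenta with close copies, read 36.6 in ovary and 75.2 in uterine tissue, and IFNG and HAND1 were likewise under the floor. PLET1, a trophoblast gene, read 140.0 and 49.1. Of the list of 7 trophoblast genes on the array 3 were measured in the NP pair, and PEG10, an imprinted gene, read 973 and 351, 2-fold or more higher in ovary (log2 1.47). The globin HBB was within 2-fold (979 and 1440.1), and embryonic HBE1 was under the floor on both arrays. Ciliated cell genes were 2-fold or more higher in uterine tissue in 3 of 6 measured cases, among them CAPSL (log2 -2.61).

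The pregnant pairs share no array with the NP pair and give the same organ contrast at other stages, so their values stand side by side as a description. In the EP pair 640 of 5638 measured genes (11.4%) were 2-fold or more higher in ovary and 584 (10.4%) in uterine tissue; in the LP pair 664 of 5632 (11.8%) and 689 (12.2%) were. Of the 514 genes higher in NP ovary, 265 were also 2-fold or more higher in ovary in the EP pair (51.6% of the NP list and 41.4% of the EP list) and 218 in the LP pair (42.4% and 32.8%). Those higher in both pregnant pairs numbered 175 (34.0%), and 206 were higher in neither. Of the 472 genes higher in NP uterine tissue, 213 were so in the EP pair (45.1%, and 36.5% of the EP list), 198 in the LP pair (41.9% and 28.7%) and 156 in both (33.1%). Opposite ratios of 2-fold or more in both pregnant pairs were seen for 25 of the ovary genes and 3 of the uterine genes.

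Some genes were far apart between the organs at each stage. NR5A2 read 5741, 3572 and 6326 on the NP, EP and LP ovary arrays and 90.5, 97.9 and 27.7 on the uterine arrays. INSL3 read 3994, 4552 and 3723 in ovary and was under the floor on every uterine array. EPCAM read 10256, 10845 and 9667 on the uterine arrays and 191, 132 and 104 in ovary. Ovary and uterine arrays did not overlap for these genes, which are examples picked for standing far apart. The share of all genes without overlap was not counted, and the stages are not replicates. RLN2 was brighter in pregnant ovary (31899.6 and 29660.1 against 11029) and read 118, 150.4 and 75.4 on the uterine arrays.

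STAR, CYP11A1 and HSD3B1 were under the floor on the NP uterine array and bright on the pregnant ones. STAR read 28846, 23450.5 and 25987 on the NP, EP and LP ovary arrays, but 13.2, 5573 and 6907 on the uterine arrays. CYP11A1 read 22.1, 1502 and 4452 on the uterine arrays, and HSD3B1 64.1, 3101 and 1822. Other steroid enzymes were divided. HSD17B1 read 66.1, 545 and 14 and CYP19A3 39.2, 131 and 19.0 on the uterine arrays, and FDX1 was already at 5268 on the NP array. HSD17B2 and SULT1E1 went from under the floor to bright, at 69.9, 9700.6 and 1590.9 and at 57.4, 3191.5 and 881 on the uterine arrays. The organ ratio of STAR was thus 8.46 or more in the NP pair and 2.07 and 1.91 in the pregnant pairs. LHCGR and INHA were dim throughout: LHCGR read 11.2, 25.1 and 41.4 and INHA 82.1, 124 and 64.8 on the uterine arrays. The trophoblast genes PAG6 and PLET1 were bright on the pregnant uterine arrays, at 22022 and 32821 (EP) and 28500.2 and 31638 (LP), beside the steroid enzymes, and their part in the uterine steroid signals was not tested.

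**Figure D3:**
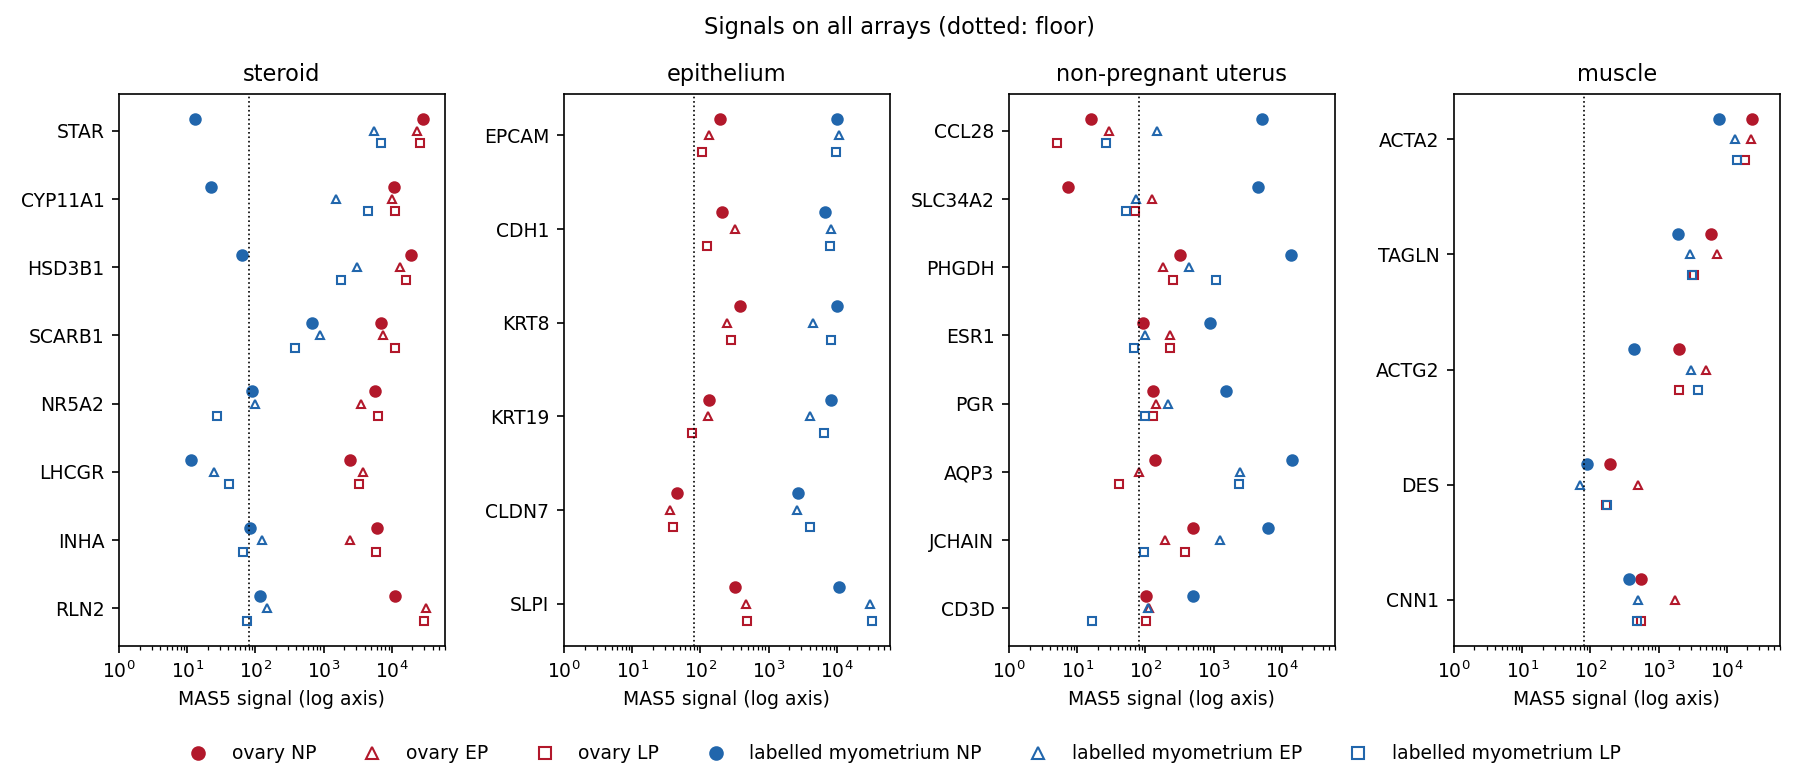
MAS5 signal on a log axis on all 6 arrays for 27 genes in 4 panels, with red for ovary and blue for tissue labelled myometrium, filled circles for non-pregnant (NP), open triangles for early pregnant (EP) and open squares for late pregnant (LP) arrays, and a dotted line at the floor of 81.7. STAR, CYP11A1 and HSD3B1 are under the floor on the non-pregnant uterine array alone, whereas CCL28 and SLC34A2 are bright on that array alone.

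Other genes were brighter on the NP uterine array than on either pregnant uterine array. CCL28 read 5059.9, 149 and 26.9 on the NP, EP and LP uterine arrays, SLC34A2 4479, 73.2 and 52.6, and PHGDH 13680.1, 436 and 1079.7. ESR1 read 902 on the NP uterine array and 98.6 and 67.8 on the pregnant ones, and PGR 1498, 216 and 99.4. In ovary PGR was at 128, 142 and 128, so it was near the floor on each ovary array. ALPL, the tissue alkaline phosphatase, was higher in uterine tissue in the NP pair (437 against 3019.9) and higher in ovary in the EP (979.5 against 226) and LP pairs (1901 against 74.2). CD3D read 498, 111 and 16.5 on the uterine arrays. Of the T and natural killer list 0 of 10 and 0 of 9 measured members were 2-fold or more higher in uterine tissue in the EP and LP pairs. The shares over all genes were 10.4% and 12.2% there, so counts of 0 in lists of this size are close to them. In the NP pair 8 of 11 members were higher in uterine tissue, beside 8.37% of all genes. S100G kept its direction (18568, 1345 and 9804 on the uterine arrays), as did AQP3 (14148, 2454 and 2356).

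Among the ovary arrays, the interferon-response genes ISG15 and MX1 were brightest on the NP array. ISG15 read 6401, 1872 and 467 on the NP, EP and LP ovary arrays, and 604, 1988 and 255 on the uterine arrays. MX1 read 9325, 2156 and 453 in ovary. Of the interferon list 1 of 19 and 3 of 18 measured members were 2-fold or more higher in ovary in the EP and LP pairs. Over all genes the shares were 11.4% and 11.8%. In uterine tissue 2 and 0 members were 2-fold or more higher, beside 10.4% and 12.2% of all genes. FABP3 read 19934, 4058 and 4328 in ovary. PCSK1 was under the floor on the NP ovary array (65.5) and read 4848 and 7917 on the pregnant ovary arrays. ISG15 and MX1 were at least as far apart between the EP and LP ovary arrays as between NP and EP, whereas FABP3 and PCSK1 were close on the pregnant ovary arrays and far from them on the NP array.

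Whether the organ ratio depended on pregnancy was tested with limma, with tissue, pregnancy and their interaction fitted to the 6 arrays and the EP and LP arrays of a tissue standing in as replicates. The NP arrays are alone in their groups and are assumed to vary like the pregnant ones, and the residual holds any difference between EP and LP. With 2 residual degrees of freedom, 0 of 15882 probe sets passed a Benjamini-Hochberg adjusted p of 0.05, and the smallest adjusted p was 0.133; 2108 (13.3%) had an unadjusted p under 0.05. The count depends on the handling of low signals, with 93 probe sets past the threshold for a pseudocount of 16 without a floor and 924 of 23999 where dim probe sets were not removed. The largest coefficient among named genes was that of UABP-2, whose organ ratio was 8.35 ± 0.34 (SE, log2) higher in the NP pair than in the mean of the pregnant pairs (limma adjusted p = 0.133). UABP-2 read 26905 and 28361 on the pregnant uterine arrays and was under the floor on all others except the LP ovary array, so the size of its coefficient depends on the floor, as does that of STAR. For STAR the coefficient was 6.47 ± 0.30 (limma adjusted p = 0.133) and for ESR1 -4.66 ± 0.37 (limma adjusted p = 0.133). For EPCAM it was 0.70 ± 0.35 (limma adjusted p = 0.469). MEP1B, HPSE and CYP3A39, further genes with large positive coefficients, were low on both NP arrays and read 23272, 5958 and 11990.1 on the EP uterine array. With 1 NP array per tissue and an error made of the EP to LP difference alone, these p-values settle the question in neither direction, and the stage values above are descriptions of single arrays.

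**Figure D4:**
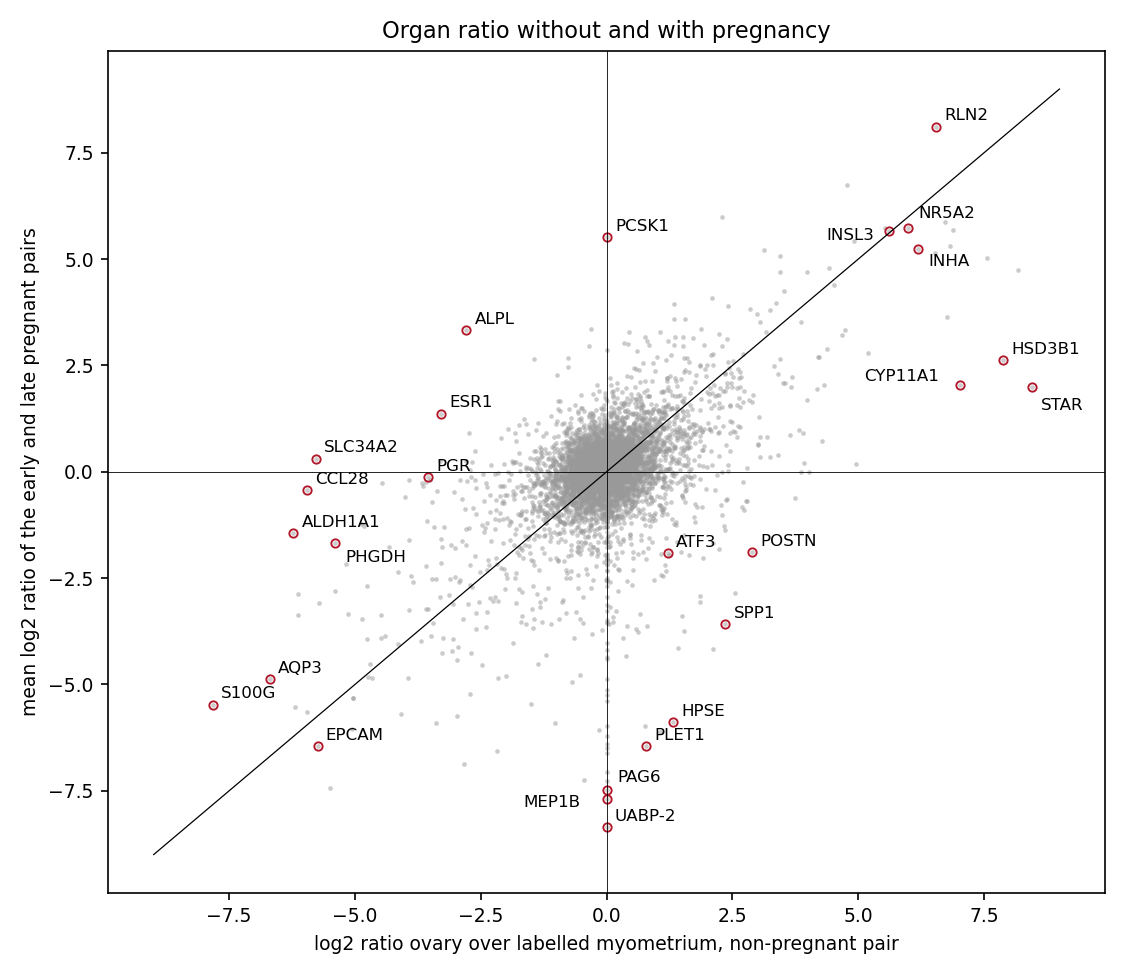
Log2 ratio of ovary over tissue labelled myometrium in the non-pregnant pair (horizontal axis) against the mean of the early and late pregnant pairs (vertical axis), 1 point per gene tested, with the line of equal ratios. INHA, NR5A2 and EPCAM lie near the line, RLN2 lies above it, STAR, CYP11A1 and HSD3B1 lie below it at the right, CCL28, SLC34A2 and ESR1 lie above it at the left, and UABP-2, MEP1B and PAG6 lie near 0 in the non-pregnant pair and far below 0 in pregnancy.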

How the data were processed

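Total RNA of 6 tissue samples (ovary and tissue labelled myometrium at 3 stages) was measured on porcine Affymetrix arrays. The values are signal intensities on a linear scale, deposited by the authors, who name MAS5 as their software per the submitters' processing notes; neither a version nor its parameters were found in the labels. On each array the trimmed mean (2% trimmed at each end) was 500.1, so the arrays had been scaled to a common level. No depth exists for arrays, and their number limits the precision.

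Of 24123 deposited values per array, 124 control probe sets were left out. Genes were named from the platform annotation: 10069 probe sets had 1 symbol, 198 several and 13732 none. The brightest of a gene's probe sets over the arrays stood for it. Without replicates per group, organ ratios were given with no test. Stage dependence was fitted with limma 3.58.1 (R 4.3.3) over the 15882 probe sets that exceeded the floor on 2 or more arrays, with Benjamini-Hochberg adjustment. The fit was also run on simulated data with independent noise and no difference between EP and LP. The residual of the real fit holds that difference, so the simulation does not show how the fit behaves on these data. Where nothing says that samples came from separate animals, p-values measure only the spread between these arrays.

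The named genes are the 4 markers of the organs, the 12 highest and 12 lowest ratios above the floor, up to 8 bounds per direction, up to 5 members per list with the largest ratios (all members of some lists of at most 20 genes) and 6 per direction by stage difference. List members named beside these were chosen for their role after their values were seen. The comparison and the lists were chosen with earlier results of these data known. Other floors, a pseudocount, scaling alternatives, the mean of probe sets and no filter were tried. Promoter motifs and genome positions were not analysed here.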

Additional observations from a re-analysis of the deposited data

Results flagged for a closer look

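Among the genes named, 7 had an organ ratio of 2-fold or more in the non-pregnant pair and of 2-fold or more the opposite way in both pregnant pairs. Over all genes this held for 25 of 514 (4.86%) higher in NP ovary and 3 of 472 (0.64%) higher in NP uterine tissue. Some named genes were picked by stage difference or after their values were seen, so the 7 are examples. The difference was not tested in a design with replicates, and the limma interaction given above settles it in neither direction. ESR1, the oestrogen receptor, had a log2 ratio of -3.29 in the non-pregnant pair, and ALPL, alkaline phosphatase, had -2.79. Both were higher in ovary in the pregnant pairs. There ESR1 read 233 and 231 in ovary and 98.6 and 67.8 in uterine tissue (EP and LP), the latter near or under the floor. ALPL was under the floor on the LP uterine array (74.2). POSTN, periostin, had 2.89, SPP1, osteopontin, had 2.36, and ACP5, uteroferrin, had 1.06, and all were higher in uterine tissue in pregnancy. ATF3, a stress-responsive transcription factor, had 1.21. HPSE, heparanase, had 1.33 or more, with the non-pregnant uterine array at the floor.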

How the results depend on the processing

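No paired analysis was run, and the limma fit did not pair the ovary and uterine arrays of a stage. No replicate could be left out of an organ ratio because each group has 1 array. With the floor at the 25th percentile (33.7), 2012 probe sets were 2-fold or more higher in ovary and 2127 in uterine tissue. With it at the 60th percentile (246.2), 842 probe sets were higher in ovary, and 758 probe sets and 302 genes in uterine tissue. With the arrays set equal on the hybridisation controls, 635 probe sets and 247 genes were higher in ovary, and 3845 and 1351 in uterine tissue. At 4-fold, 405 probe sets and 164 genes were higher in ovary, and 423 and 170 in uterine tissue. The interaction passed an adjusted p of 0.05 for 93 probe sets with a pseudocount of 16 and no floor and for 924 of 23999 with no filter on low signals, and for 0 under the other alternatives run; the cause was not tested. Of 213 genes from the lists and rankings that were 2-fold or more apart, 0 turned sign under any of the 8 alternatives for their values. Other floors, the pseudocount, no filter and shifts smaller than 2-fold cannot turn the sign of such a ratio. Only quantile normalization and the mean of probe sets could have, and under these 0 turned. Between 172 (floor at the 60th percentile) and 213 of the genes stayed 2-fold apart. Recomputed list medians moved by over 1.5-fold in 46 cases and by less in 256. Signals near the floor limit the oocyte genes and every bound.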
